A study of Mus musculus with 4 samples.

Results

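The keratins Krt5, Krt14 and Krt15, the intermediate filament genes of the basal layer of stratified epithelia, were examined in mouse embryonic skin at day E17.5. These 3 genes were taken by symbol from the platform annotation, out of 19938 genes with a probe set of their own. Each was measured by 1 probe set that names no other gene, and no further probe set names any of them. Total RNA of isolated skin was hybridised to 4 Affymetrix arrays that read whole transcripts, with 2 female mice pooled on each. The Ovol2 BT group (2 arrays, strain given as FVB/N) carried TRE-Ovol2-Flag, a tetracycline-responsive Ovol2 transgene with a Flag tag, together with K5-tTA, in which a keratin 5 promoter drives the tetracycline transactivator. The control group (2 arrays, strain given as CB6F1) carried TRE-Ovol2-Flag alone or was wild type, so some control mice may carry the uninduced transgene. The labels describe the mice as littermates but give a different strain for each group, so an effect of strain and one of the transgenes cannot be told apart. Ovol2 is a zinc finger factor that acts in epithelial cells, and the question was what its excess does to epidermal differentiation.

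Keratins assemble as obligate pairs of a type I and a type II chain. In the basal layer the type II chain K5 pairs with the type I chain K14, and K15 is a further type I chain that can pair with K5. When a keratinocyte leaves the basal layer it turns these genes down and switches on the pair of K1 and K10. All 3 basal keratins are also made in the outer root sheath of the hair follicle, where K15 is known as a marker of the stem cell region. The Krt5 gene is of particular relevance to this design, because the transgenic driver is built on a keratin 5 promoter and is therefore active in the cells that make these keratins.

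The 250 bases before the annotated starts of Krt5 (GRCm38.p6, chr15:101712906-101713155, minus strand) and Krt14 (GRCm38.p6, chr11:100206031-100206280, minus strand) are given from RefSeq, 5′ to 3′. The promoter sequences used held no entry for Krt15, so its window was not searched. Whether the Krt5 window is part of the promoter used in the driver was not examined. Capitals mark matches to the letters searched.
Krt5: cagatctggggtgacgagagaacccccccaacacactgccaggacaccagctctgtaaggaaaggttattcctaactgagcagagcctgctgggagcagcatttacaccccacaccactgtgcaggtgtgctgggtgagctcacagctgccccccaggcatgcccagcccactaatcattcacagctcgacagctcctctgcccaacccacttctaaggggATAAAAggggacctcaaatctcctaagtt
Krt14: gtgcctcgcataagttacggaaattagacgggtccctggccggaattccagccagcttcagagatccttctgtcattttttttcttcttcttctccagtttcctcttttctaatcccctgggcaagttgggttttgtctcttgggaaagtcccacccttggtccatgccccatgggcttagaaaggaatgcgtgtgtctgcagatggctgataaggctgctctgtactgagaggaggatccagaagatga
The letters searched, on both strands, were CCGTTA (the core bound by Ovo family factors), GCCNNNGGC (AP-2), TATAAA (the core promoter box named after its letters), GGGCGG (GC box) and the AP-1 motif, and neither window held any of these letters. Among 32851 mouse promoter windows of the same length, 2.18% held CCGTTA, 13.7% the AP-2 letters, 12.4% TATAAA, 32.7% GGGCGG and 6.75% the AP-1 motif. A further motif, ATAAAA, was chosen after the sequences were read and overlaps the TATA box letters. It stands 29 to 24 bases before the Krt5 start and occurs in 17.0% of all windows. Of 36 windows of keratin genes, 19 held ATAAAA and 16 held TATAAA. The Krt14 window did not hold ATAAAA. These matches describe the letters of the windows only.

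The arrays stood on a similar scale, with median intensities of 126 and 132 in Ovol2 BT and 123 and 126 in controls. Values were compared as log2(intensity + 16), on which all differences below are given as Ovol2 BT minus control, and were tested with limma across all 14953 genes above a filter on low values, with Benjamini-Hochberg adjustment. The threshold for a call was an adjusted p of 0.05, and 144 genes passed it (0.963%), 92 higher and 52 lower. The count was 351 when control replicate 1 was left out, 244 when Ovol2 BT replicate 2 was, and 307 (273 higher, 34 lower) with each array centred on cell junction genes. Ovol2, the check of the labels, had intensities of 4367 and 3893 in Ovol2 BT and 360 and 161 in controls, a log2 difference of 4.0 (SE 0.33, limma adjusted p = 0.00311). Precision is limited by the number of arrays. In whole skin, fewer cells of a type and less RNA per cell cannot be told apart.

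All 3 basal keratins were lower in Ovol2 BT skin, Krt15 by the most. Each had both Ovol2 BT arrays below both control arrays, which held for 21.9% of all genes tested, and each was called lower, which held for 0.348%.

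Krt15 had intensities of 806 and 631 in Ovol2 BT skin, against 3697 and 3399 in control skin. The groups lay far apart: the lower control array was 4.22 times the higher Ovol2 BT array. The mean was 719 ± 124 in Ovol2 BT and 3548 ± 210 in controls (SD, n = 2 arrays each). Krt15 fell by 2.29 on the log2 scale (SE 0.20, 95% interval -2.75 to -1.82, limma adjusted p = 0.00311), 4.88-fold on that scale. Of the 14953 genes tested, 8 had a more negative difference.

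Krt14, the type I chain of the main basal pair, had intensities of 2832 and 2170 in Ovol2 BT skin, against 6529 and 5261 in control skin. The arrays of a group differed more from each other than for the other members, but the groups did not overlap, and the lower control array was 1.86 times the higher Ovol2 BT array. The mean was 2501 ± 468 in Ovol2 BT and 5895 ± 896 in controls (SD, n = 2 arrays each). Krt14 fell by 1.24 on the log2 scale (SE 0.20, 95% interval -1.68 to -0.79, limma adjusted p = 0.0226), 2.36-fold on that scale, and 49 genes had a more negative difference.

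Krt5, its type II partner, had intensities of 4478 and 3790 in Ovol2 BT skin, against 9485 and 8288 in control skin. Again the groups did not overlap, with the lower control array at 1.85 times the higher Ovol2 BT array. The mean was 4134 ± 487 in Ovol2 BT and 8886 ± 846 in controls (SD, n = 2 arrays each). Krt5 fell by 1.1 on the log2 scale (SE 0.16, 95% interval -1.46 to -0.74, limma adjusted p = 0.0148), leaving 46.6% of the control level on that scale, and 72 genes had a more negative difference. Without a variance trend in the model the calls of Krt5 (limma adjusted p = 0.0526) and Krt14 (limma adjusted p = 0.0524) ended, with the same differences, while Krt15 kept its call (limma adjusted p = 0.00774).

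**Figure D1:**
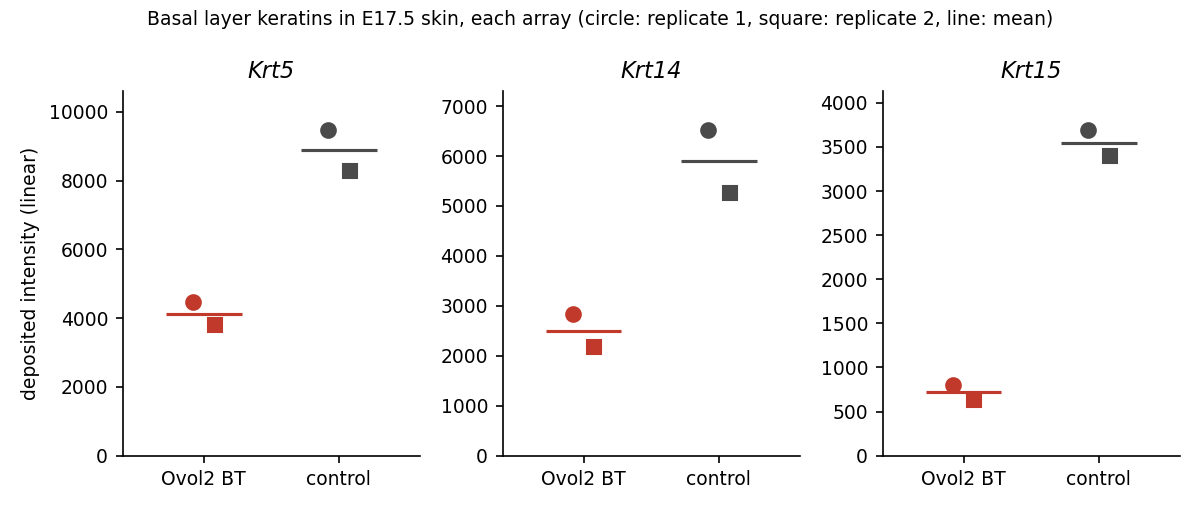
Deposited intensity (linear axis from 0) of Krt5, Krt14 and Krt15 on each array, Ovol2 BT to the left of control, with a circle for replicate 1, a square for replicate 2 and a line at the group mean. In each gene both Ovol2 BT arrays lie below both control arrays, and the distance is widest for Krt15, at 806 and 631 against 3697 and 3399.

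The size of the fall differed among the members. Whether it differed beyond the spread of the arrays was asked with differences taken within an array, in which any proportional scaling of the array cancels. The level of a pair on an array also reflects its probes, so only the shift between groups is read. Krt15 minus Krt14 was -1.79 and -1.76 in Ovol2 BT, against -0.82 and -0.63 in controls, a further fall of Krt15 by 1.05 on the log2 scale (pooled SD 0.10). Krt15 minus Krt5 was -2.45 and -2.56 in Ovol2 BT, against -1.36 and -1.28 in controls, a shift of -1.18 (pooled SD 0.06). Krt15 thus moved apart from both partners of the main pair by many times the spread between the 2 arrays of a group. By mean level Krt5 ranked 62 and Krt14 ranked 214 among 19938 genes, and Krt15 ranked 1177. Whether intensity stays proportional to RNA at such levels was not tested. For Krt14 minus Krt5 the values were -0.66 and -0.80 in Ovol2 BT and -0.54 and -0.65 in controls, a shift of -0.13 (pooled SD 0.09), with the nearest arrays of the groups almost touching. An exact permutation test over the arrays (two-sided, not adjusted for the 3 pairs) gave p = 0.333 for each pair, which is the smallest p that 2 arrays against 2 allow. The test therefore cannot separate these pairs at the 0.05 level, and the comparison rests on the sizes.

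Other keratins lay on both sides of 0. Of the 38 other type I and type II keratin genes tested, 1 was called lower and 3 higher, with 19 differences on each side of 0 and a median of -0.03, against -0.04 for all genes tested (0.348% of all genes were called lower and 0.615% higher). At an unadjusted p under 0.05, 9 were lower and 7 higher. The share of all genes under that unadjusted p was not counted, here or for the lists below. A further 10 keratin genes fell under the filter on low values. Krt13, a type I keratin of mucosal epithelia, had intensities of 257 and 203 in Ovol2 BT and 1618 and 659 in controls. It was called lower (difference -2.10, SE 0.37, limma adjusted p = 0.0376), although the control arrays differed from each other by more than 2-fold, and the call ended under quantile normalization (adjusted p = 0.0661) and without a variance trend (adjusted p = 0.0551). The difference of Krt13 was -1.47 without control replicate 1 and -2.74 without control replicate 2.

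The abundant pair of the suprabasal layers, Krt1 and Krt10, showed differences close to 0. Krt1 had intensities of 10224 and 9371 in Ovol2 BT and 11944 and 10110 in controls (difference -0.17, SE 0.14, limma adjusted p = 0.692). Krt10 had 9303 and 8733 in Ovol2 BT and 10654 and 9152 in controls (difference -0.13, SE 0.14, limma adjusted p = 0.754). The groups overlapped in both genes, and both signs turned with arrays centred on cell junction genes (0.11 and 0.15). Krt77, a further suprabasal keratin, was at 1.35 (SE 0.41, limma adjusted p = 0.278), with 2.13 without control replicate 1 and 0.58 without control replicate 2. Among keratins of activated keratinocytes, Krt6b rose by 3.73 (SE 0.37, limma adjusted p = 0.00460) and Krt16 by 1.69 (SE 0.21, limma adjusted p = 0.00760). Krt6a was at 1.74 (SE 0.45, limma adjusted p = 0.172). It was at 0.95 without Ovol2 BT replicate 1 and 2.54 without Ovol2 BT replicate 2. Without control replicate 1 it was at 2.03, and without control replicate 2 at 1.46. Krt8, a type II keratin of simple epithelia, rose by 2.19 (SE 0.24, limma adjusted p = 0.00499), while Krt7 (-1.73, SE 0.39, adjusted p = 0.103) and Krt19 (-0.35, SE 0.28, adjusted p = 0.677) did not pass limma's test. Krt7 was called lower with the lowest 50% of genes left out (limma adjusted p = 0.0290) and with the replicate number as a block (limma adjusted p = 7.5e-05). It was at -2.20 without Ovol2 BT replicate 1 and -1.26 without Ovol2 BT replicate 2. Without control replicate 1 it was at -1.21, and without control replicate 2 at -2.25. The type I keratins have related sequences, and where the probes lie was not examined, so cross-hybridisation between Krt14, Krt16 and Krt17 was not tested. On the same arrays Krt14 fell, Krt16 rose and Krt17 was at 0.17 (SE 0.16, limma adjusted p = 0.729).

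**Figure D2:**
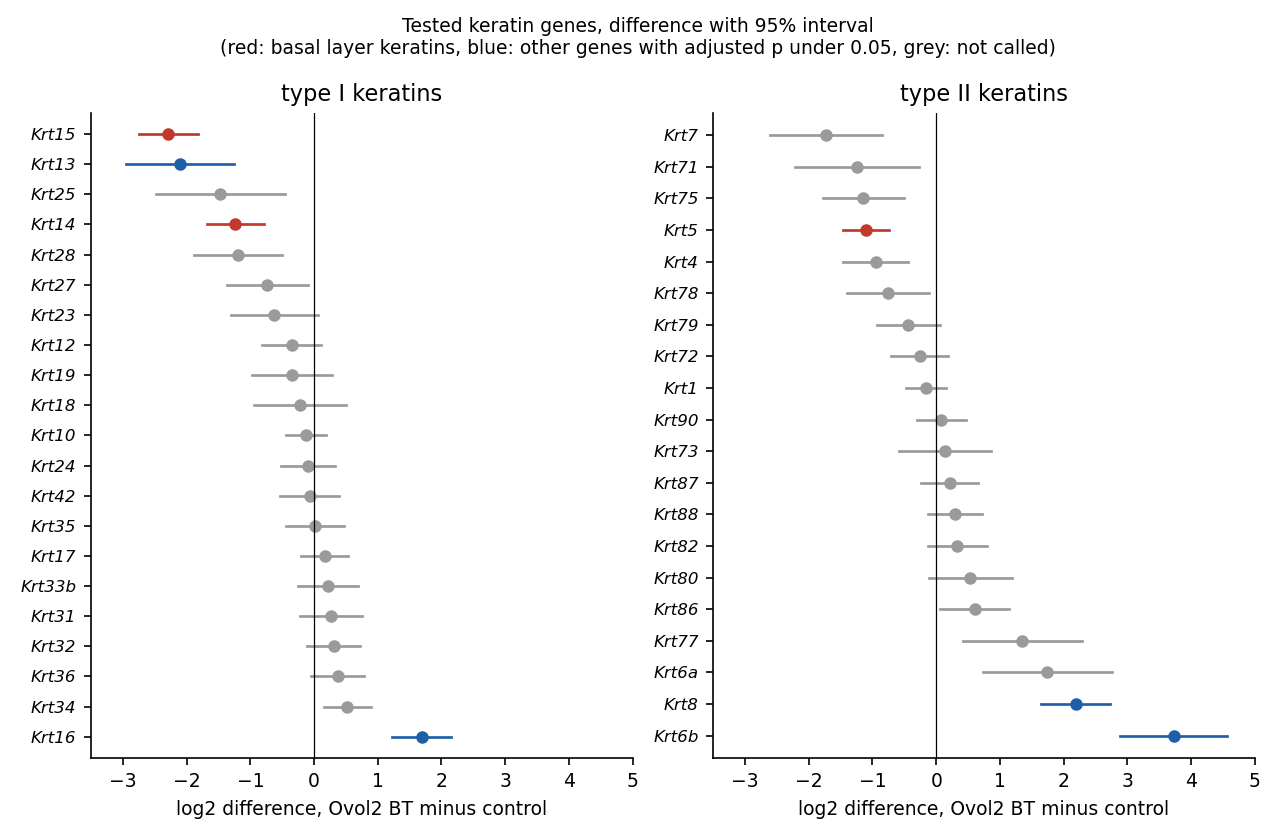
Log2 difference (Ovol2 BT minus control, x axis) with its 95% interval for each tested type I keratin (left) and type II keratin (right), ordered by difference. Krt15 (-2.29) is the lowest of the type I genes, Krt14 (-1.24) and Krt5 (-1.1) lie among the lower genes of their panels, and Krt16, Krt8 and Krt6b stand at the other end.

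Krt14 and Krt15 lie in the type I cluster on mouse chromosome 11 and Krt5 in the type II cluster on chromosome 15, which allows a comparison with the genes beside them. In the order of the reference annotation, Krt13 and Krt15 are neighbours, followed by Krt19, Krt9 and Krt14, and then by Krt16, Krt17 and Krt42. Along this stretch the called decreases of Krt13 (-2.10), Krt15 (-2.29) and Krt14 (-1.24) were interrupted by Krt19 (-0.35, not called). Immediately beyond Krt14 stood the called increase of Krt16 (1.69), and then Krt17 (0.17) and Krt42 (-0.07, SE 0.21), which were not called. Krt16 had intensities of 724 and 685 in Ovol2 BT, against 222 and 195 in controls, so adjacent genes moved in opposite directions. On the other side of Krt13, the hair keratin genes Krt36 (0.37), Krt35 (0.01) and Krt32 (0.31) were not called.

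On chromosome 15, Krt5 is flanked on one side by Krt6a and Krt6b. Krt6b had intensities of 3138 and 1993 in Ovol2 BT, against 267 and 111 in controls, and Krt6a had 1331 and 432 in Ovol2 BT, against 266 and 175 in controls. On the other side stands Krt71, a keratin of the inner root sheath, with 256 and 320 in Ovol2 BT and 399 and 1210 in controls (difference -1.24, SE 0.43, limma adjusted p = 0.353). It was followed by Krt72 (-0.26, SE 0.20) and Krt73 (0.14, SE 0.32), which were not called. Of the 7 other tested genes within 4 places of Krt5, Krt6b was the only one called, and Krt2 lay under the filter on low values.

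**Figure D3:**
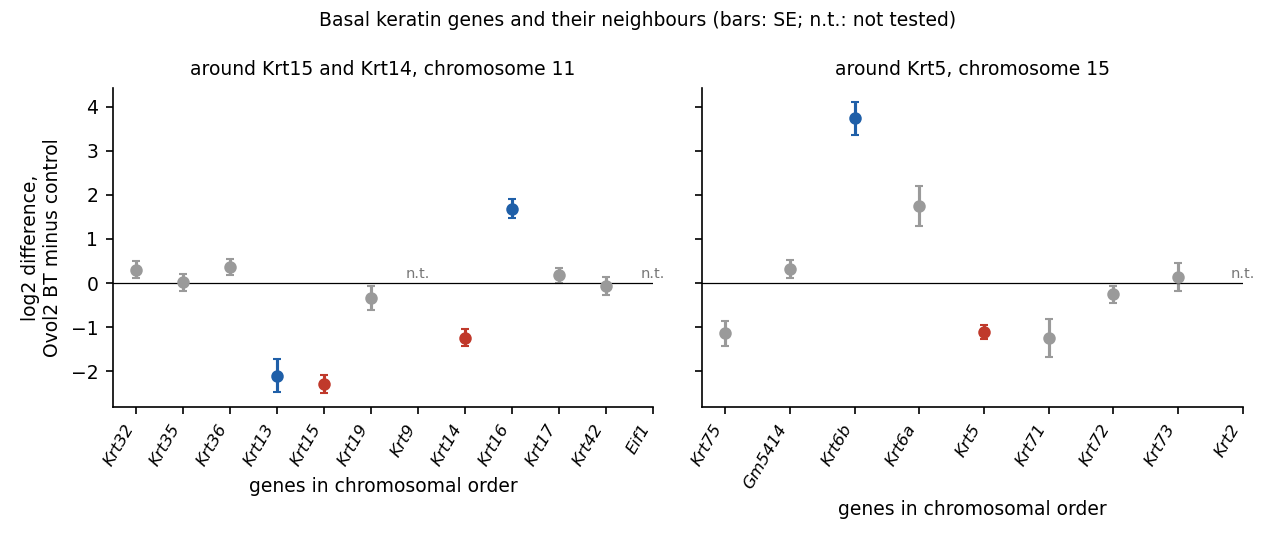
Log2 difference (Ovol2 BT minus control, y axis, bars SE) of Krt15, Krt14 and Krt5 (red) and of the protein-coding genes within 4 places of them in chromosomal order (blue, called; grey, not called; n.t., not tested). Krt15 and Krt14 fell while Krt16, next to Krt14, rose, and Krt5 fell while Krt6b, at a distance of 2 genes, rose.

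Other genes of the basal layer ranged from decreases of the size seen in Krt15 to differences above 0. Of 19 tested genes of a list of basal layer genes other than keratins, 2 were called lower and none higher by limma. The shares of all genes were 0.348% and 0.615%. At an unadjusted p under 0.05, 6 of the list were lower and 1 higher. The median difference over the list was -0.26, and that over all genes tested was -0.04. Aqp3, a channel for water and glycerol in basal keratinocytes, had 184 and 138 in Ovol2 BT, against 984 and 827 in controls, and fell by 2.39 (SE 0.23, limma adjusted p = 0.00403). Bnc1, which encodes basonuclin 1, a zinc finger protein of basal keratinocytes, had 96.7 and 108 in Ovol2 BT, against 421 and 545 in controls, and fell by 2.07 (SE 0.21, limma adjusted p = 0.00471). Both groups of arrays were well separated in these genes. The hyaluronan receptor gene Cd44 was at -0.71 (SE 0.20, limma adjusted p = 0.233). The integrin genes Itga6 (-0.05, SE 0.23) and Itgb4 (0.24, SE 0.23), whose products anchor the keratin filaments at hemidesmosomes, had overlapping groups and were not called. The integrin gene Itga3 (-0.60, SE 0.24), the laminin gene Lama3 (-0.69, SE 0.21) and the cadherin gene Cdh3 (-0.77, SE 0.22) were not called. They were lower at an unadjusted p under 0.05. The gene higher at that p, Cd151 (0.66, SE 0.22), was not called either. Of the genes named here, all but Aqp3, Bnc1 and Cd44 fall outside the naming rule given below. After centring on the junction genes, the basal layer list had a median of 0.02 and all genes tested had 0.24.

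Proteins that attach keratin filaments to junctions were examined as a list of 12 genes. None was called by limma, with 1 lower and 0 higher at an unadjusted p under 0.05, and the median was -0.24 (0.03 after centring on the junction genes). The plakophilin gene Pkp1 (-0.53, SE 0.19, adjusted p = 0.385), the envoplakin gene Evpl (-0.50, SE 0.24, adjusted p = 0.515) and the periplakin gene Ppl (-0.39, SE 0.20, adjusted p = 0.557) had the smallest p in limma's test. Desmoplakin, the main link of keratin to desmosomes (Dsp), had intensities of 4774 and 4530 in Ovol2 BT and 5932 and 5388 in controls (-0.28, SE 0.15, limma adjusted p = 0.571). The list shares members with the basal layer list and with the cell junction list, so the lists are not independent.

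Transcription factors known to act on the promoters of Krt5 and Krt14 were also not called in the reported fit. All 12 were tested, 11 had negative differences, 1 was lower and 0 higher at an unadjusted p under 0.05, and the median was -0.23 (0.05 with arrays centred on cell junction genes). Trp63, which encodes p63, the factor that maintains basal cells and activates these keratins, had intensities of 1263 and 1170 in Ovol2 BT and 1446 and 1682 in controls. Its groups did not overlap, but the difference was small (-0.35, SE 0.20, limma adjusted p = 0.582). Tfap2c, an AP-2 family gene, had 330 and 231 in Ovol2 BT and 589 and 521 in controls (-0.96, SE 0.24, limma adjusted p = 0.146). It was called lower on all 4 arrays with the replicate number as a block (limma adjusted p = 0.00638). Without Ovol2 BT replicate 1 it was at -1.21, and without Ovol2 BT replicate 2 at -0.72. Its relative Tfap2a was at -0.29 (SE 0.19, adjusted p = 0.620) and the thyroid hormone receptor gene Thra at 0.34 (SE 0.21, adjusted p = 0.616) in the same fit.

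Markers of other cells of skin moved with the same contrast. In the adipocyte list 8 of 11 tested genes were called higher, against 0.615% of all genes, with all 11 above 0 and none listed at 0. The median of the list was 2.32, and that of all genes -0.04. The summed intensity of the list was 19994 and 19841 in Ovol2 BT, against 5949 and 4167 in controls. Cidea (3.14, SE 0.29, limma adjusted p = 0.00317), Pck1 (3.09, SE 0.33, limma adjusted p = 0.00481) and Ucp1 (2.31, SE 0.25, limma adjusted p = 0.00481) had the smallest p. Their part in the falls of the keratins was not tested. The suprabasal keratins Krt1 and Krt10, measured in the same RNA, were at -0.17 and -0.13, and the 10 fibroblast genes had a median of 0.05 with none called by limma and none at an unadjusted p under 0.05. All 8 skeletal muscle genes (median 0.21) and all 7 endothelial genes (median 0.19) had differences above 0, with none called by limma and with 1 muscle gene and 0 endothelial genes higher at an unadjusted p under 0.05.

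Genes of epithelial cell junctions, which include desmosomal genes that differ in level between the epidermal layers, had a median of -0.27 over 14 genes, with none called by limma. At an unadjusted p under 0.05, 3 were lower and 1 was higher. Dsc3 (-0.98, SE 0.22, adjusted p = 0.114), Pkp1 and Dsc2 (0.49, SE 0.15, adjusted p = 0.282) had the smallest p in limma's test. Dsc3 was called lower with the replicate number as a block (limma adjusted p = 0.00237). It was at -1.16 without control replicate 1 and -0.79 without control replicate 2. Without Ovol2 BT replicate 1 it was at -0.80, and without Ovol2 BT replicate 2 at -1.15. Dsc2 was called higher after centring on the junction genes (0.77, limma adjusted p = 0.0422). Set against the mean of these genes on each array, the basal keratins remained lower and called. Krt15 was then at -2.01 (SE 0.20, limma adjusted p = 0.00156), Krt14 at -0.96 (SE 0.19, limma adjusted p = 0.0375) and Krt5 at -0.82 (SE 0.15, limma adjusted p = 0.0282), while the median of all genes moved to 0.24.

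In the suprabasal differentiation list 1 of 13 tested genes was called lower and none higher, against 0.348% and 0.615% of all genes. The median was -0.27 (0.01 after centring on the junction genes). The called gene was Tgm3, a transglutaminase of the cornified envelope (-1.89, SE 0.22, limma adjusted p = 0.00605). The desmoglein gene Dsg1b (-1.09, SE 0.21, adjusted p = 0.0590) and the envelope precursor gene Ivl (-0.85, SE 0.25, adjusted p = 0.245) did not pass limma's test, and were called lower without Ovol2 BT replicate 2 (-1.22 and -1.18). Without control replicate 1 the median of this list was -0.05, and without control replicate 2 it was -0.50.

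Since K5, K14 and K15 are also keratins of the outer root sheath, genes of hair follicle progenitors were read beside them. Of the 14 tested, 4 were called lower, against 0.348% of all genes, and none higher, with 9 lower and 0 higher at an unadjusted p under 0.05. The median was -0.75, and that of all genes -0.04. Lhx2, a transcription factor of follicle progenitors, was at -1.83 (SE 0.22, limma adjusted p = 0.00732), the homeobox gene Msx2 at -1.24 (SE 0.19, limma adjusted p = 0.0191) and the ectodysplasin receptor gene Edar at -1.22 (SE 0.21, limma adjusted p = 0.0299). The fourth, Tbx1, was named after its values were seen (-1.13, SE 0.20, limma adjusted p = 0.0410). The summed intensity of this list was 11011 and 11430.5 in Ovol2 BT, against 15200.5 and 15175 in controls, with no gene listed at 0. Its call count was 2 with arrays centred on cell junction genes and also under quantile normalization, and the call of Edar ended in both (adjusted p = 0.0579 and 0.0540) and without Ovol2 BT replicate 2 (adjusted p = 0.0582). Of 8 melanocyte genes, 1 was called lower, against 0.348% of all genes, and the median was -0.48. The called gene was Tyr, the pigment enzyme tyrosinase, named after its values were seen (-1.15, SE 0.20, limma adjusted p = 0.0328). The summed intensity of that list was 3438 and 3079 in Ovol2 BT, against 4441 and 5077 in controls. The part of these cells in the keratin values was not tested.

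**Figure D4:**
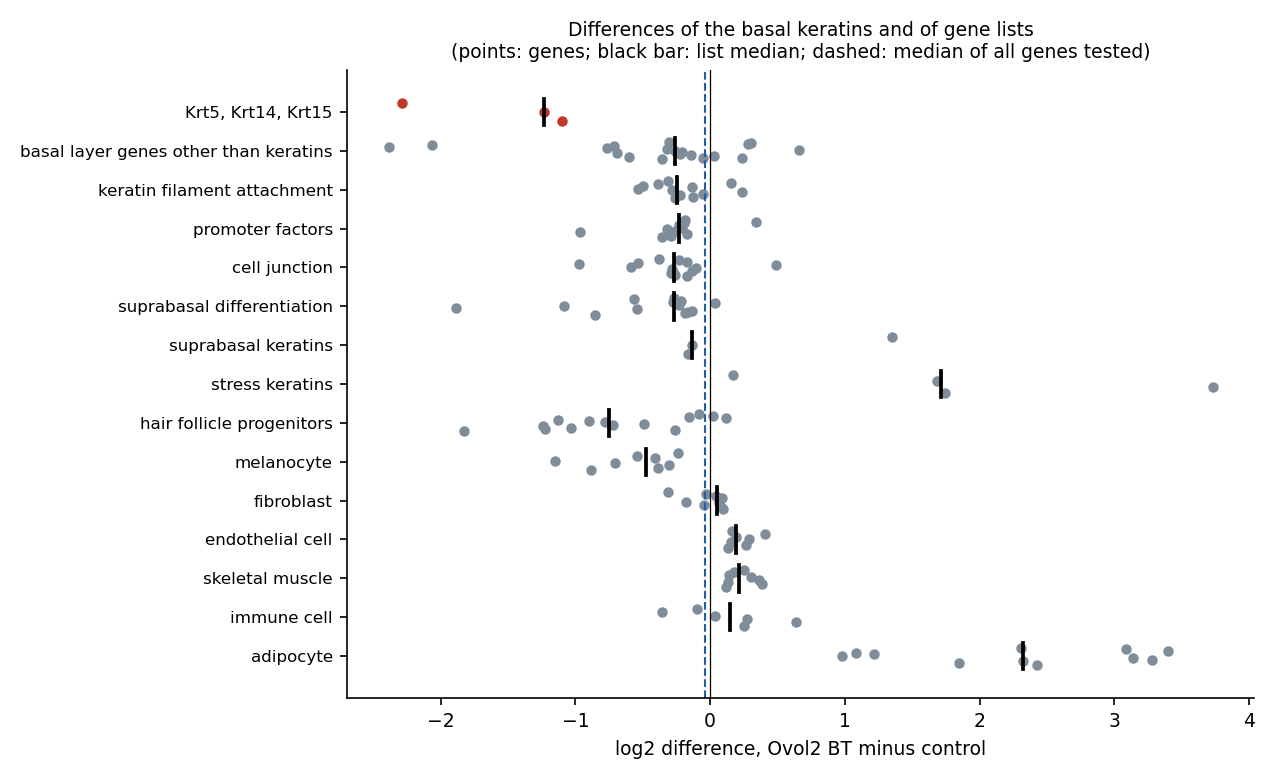
Log2 differences (Ovol2 BT minus control, x axis) of Krt5, Krt14 and Krt15 (red, top row) and of the tested genes of other lists (grey points, black bar at the median), with the median of all genes tested as a dashed line at -0.04. The basal keratins lie below the median of each list shown, within the range of the basal layer genes, where Aqp3 (-2.39) and Bnc1 (-2.07) are the lowest.

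Genes whose profile over the 4 arrays was most like each keratin were found by the root mean square distance between log2 profiles, each centred on its own mean. This is a description with 4 points a gene. The nearest to Krt5 were Lef1 (distance 0.04), a transcriptional partner of beta-catenin, the forkhead gene Foxd1 (0.08), the Wnt ligand gene Wnt4 (0.08), Krt14 (0.09) and the Iroquois homeobox gene Irx4 (0.10). Lef1 had intensities of 756 and 654 in Ovol2 BT, against 1532 and 1378 in controls. Lef1, Foxd1, Wnt4 and Irx4 were not called (limma adjusted p from 0.0503 to 0.0653). The nearest to Krt14 was its partner Krt5 (0.09). After it came the galectin gene Lgals3 (0.10), Irx4 (0.12), the glycosyltransferase gene Galnt6 (0.13) and the aldehyde oxidase gene Aox4 (0.13). Lgals3 had 1241 and 910 in Ovol2 BT, against 3285 and 2469 in controls. It was called lower (limma adjusted p = 0.0269), while Galnt6 (limma adjusted p = 0.137) and Aox4 (limma adjusted p = 0.0824) were not called.

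The nearest to Krt15 were other genes. Aqp3 came first (distance 0.07), then the receptor phosphatase gene Ptprz1 (0.13), Gadl1 (0.17), Bnc1 (0.26) and Paqr3 (0.28). Ptprz1 had 41.7 and 31.4 in Ovol2 BT, against 255 and 287 in controls. Gadl1 had 30.4 and 33.7 in Ovol2 BT, against 233 and 234 in controls. At such low intensities the log2 difference depends on the constant added to the intensity. With constants of 1 and 64, Ptprz1 was at -2.87 and -1.74, and Gadl1 at -2.83 and -1.63. Krt15 was at -2.31 and -2.21 with the same constants. The distances and ranks given here are those of the reported constant. Krt14 and Krt5 stood at ranks 28 and 47 among the genes nearest to Krt15, at distances of 0.53 and 0.59.

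The falls were then compared over 16 alternatives on the same arrays. The looser threshold repeats the reported fit, so it could not end a call, and the mean over probe sets repeats the members' own values. The filter, variance model and replicate block leave the members' differences as they are and change only the test. Krt15 was lower and called in 16 of 16, with differences from -2.46 to -2.01. Krt14 was lower and called in 15 of 16, with differences from -1.43 to -0.96, and Krt5 in 15 of 16, with differences from -1.22 to -0.82. With 1 array left out, Krt14 ranged from -1.43 without Ovol2 BT replicate 1 to -1.04 without Ovol2 BT replicate 2, and Krt5 from -1.22 to -0.98 under the same omissions.

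**Figure D5:**
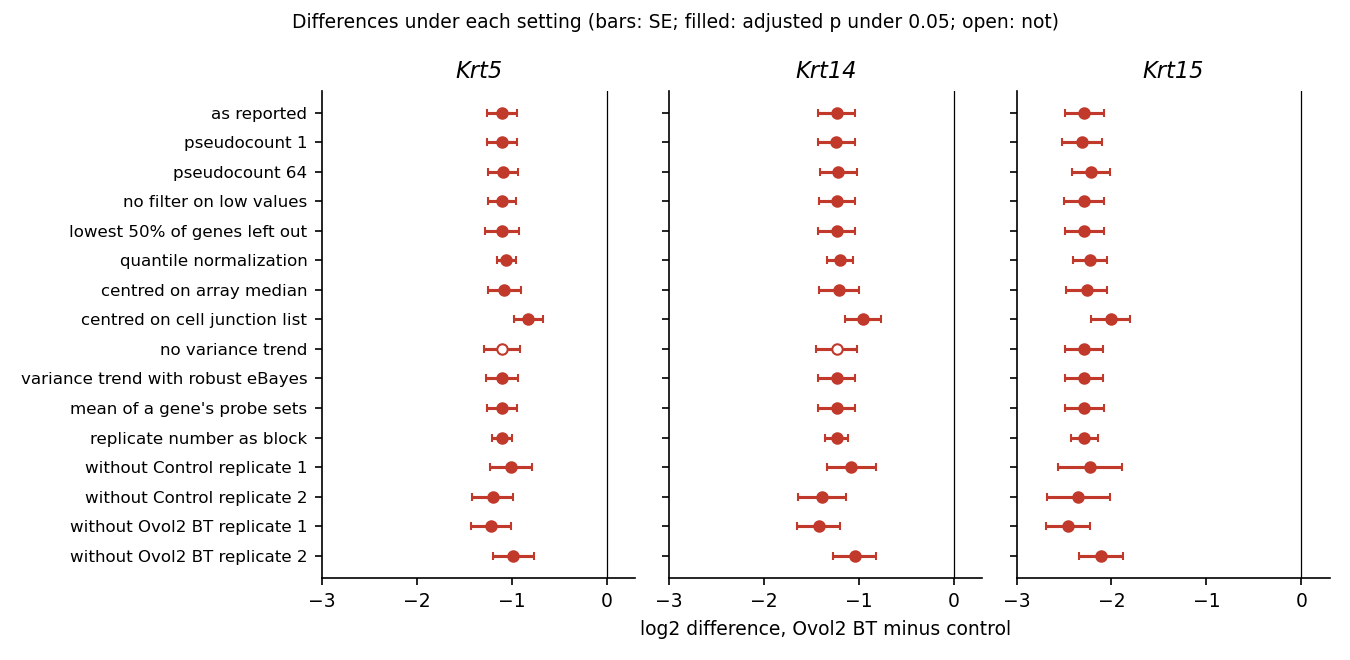
Log2 difference (Ovol2 BT minus control, x axis, bars SE) of Krt5, Krt14 and Krt15 as reported and under each other setting, filled where limma's adjusted p was under 0.05 and open where it was not. The open points are Krt5 and Krt14 without a variance trend, and the smallest falls are those with arrays centred on cell junction genes, at -0.82, -0.96 and -2.01.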

How the data were processed

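The authors deposited a linear intensity for each probe set. The submitters' processing notes name PLIER 2.0 and Affymetrix Expression Console 1.1.1. Of background correction, normalization between arrays and genome build, nothing is stated in the sources used here. Sample titles gave the groups and the numbers of the biological replicates. Of 35557 probe sets, 21789 name 1 gene (19938 symbols), and the one with the highest mean was used for each gene. The lowest 25% of genes by mean level (4985) were left out, and log2(intensity + 16) of the other 14953 was fitted by group in R 4.3.3 with limma 3.58.1, using eBayes with a mean-variance trend (residual degrees of freedom 2, prior 6.94), two-sided. Figures used Python 3.11.15 and matplotlib 3.10.9. The fit was tested on simulated data with known changes. The members, gene lists and tests were chosen with earlier results of these data known. Named genes were the members, Ovol2, the 5 nearest genes to each member, called keratins, called genes of the basal, attachment and promoter factor lists, and the 3 genes of smallest p in 10 lists. Alternatives varied the pseudocount, filter, scaling, variance model, probe set rule, replicate block, arrays and threshold. Promoters are from RefSeq (GRCm38.p6, matched by symbol for Krt5 and Krt14); the comparison of protein sequences was not run. Gene order is from the same assembly.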

Additional observations from a re-analysis of the deposited data

How the results depend on the processing

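Over the 16 alternatives the differences of Krt5, Krt14 and Krt15 kept their direction. Only the pseudocount, scaling and left-out array settings could alter these differences. Their calls ended only without a variance trend, at -1.1 for Krt5 (limma adjusted p = 0.0526) and -1.24 for Krt14 (limma adjusted p = 0.0524). The count of all called genes was 307 with arrays centred on cell junction genes, and with 1 array left out it ranged from 204 to 351. Where a group is left with a lone array, that array is assumed to vary like those of the other group. Reversed signs were those of Krt1 (0.11) and Krt10 (0.15) under the junction centring, by its own shift of all genes to a median of 0.24, and of Krt19 with 1 array left out, where it ranged from -0.70 without control replicate 2 to 0.012 without control replicate 1. None of these was called. With the replicate number as a replicate block, which the labels do not say marks a shared litter or day, 671 genes were called, and array deviations from the group mean showed a correlation of 0.41 between equal numbers, over 14953 genes. The block changed no direction, and Krt15 was at -2.29 (limma adjusted p = 1.23e-05), Krt14 at -1.24 (adjusted p = 0.000135) and Krt5 at -1.1 (adjusted p = 0.00015) in it. Of the other named genes' results under alternatives, 587 kept direction and side of the threshold, 50 gained a call, 5 lost one and 3 changed sign. Among the gains were calls of Krt6a, Krt7, Krt77, Dsc3, Dsg1b, Ivl, Tfap2c, Cd44 and Pkp1 with the replicate block. With 2 arrays a group, an absent call does not show that a gene was unchanged.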
